A study of Mus musculus with 38 samples.

Results

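Of the 38 arrays of a mouse diet time course, 4 arrays of weeks 9 and 12 carried far more adipocyte RNA and far less RNA of early response genes than the rest, and these 4 are described here. They were the LFC and HFC arrays of week 9 (W9) and the LFC and HF75 arrays of week 12 (W12), and they were set against the other 6 arrays of the same weeks (HF5 W9, HF20 W9, HF75 W9, HFC W12, HF5 W12 and HF20 W12). The 4 arrays were chosen on measured values, namely the adipocyte genes Adipoq, Lep, Lipe and Aqp7 and the early response gene Fos, so every difference between the 4 and the 6 is given as a description with no test. The remaining 28 arrays, of 8 other time points, were not used in the choice and served for the only test. The 4 are called high-adipocyte arrays below and the 6 are called other arrays.

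The study followed epididymal fat, the pad beside the testis, in C57BL/6J mice, a common inbred laboratory strain, which began their diets after weaning at an age of 3 to 4 weeks. LFC is the low fat control diet with 10% of its calories from fat, HFC is a high fat diet with added sucrose and 60% of its calories from fat, and HF5, HF20 and HF75 are that same high fat diet given with 5, 20 or 75 µg of KAL-1, a botanical formulation. Weeks were counted from day 14 of feeding, and each diet had 1 array at each time point, so no diet had a replicate array within a week. The tissue label of all 38 arrays reads epididymal infiltrating macrophages (SVCs), where SVCs are stromal vascular cells, although the titles of LFC W9 and HFC W9 have another form than those of the 3 dose arrays of the week and the title of LFC W12 lacks the week. The labels do not say whether an array holds RNA of 1 animal or of a pool.

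White fat is made of large adipocytes filled by a single fat droplet and of a stromal vascular fraction that holds progenitors, vessel cells, macrophages and lymphocytes. To obtain the fraction, fat is usually cut up and digested with collagenase, and the buoyant adipocytes are taken off after a spin. Immediate early genes such as Fos are transcribed within minutes of a stimulus, without new protein synthesis, and their transcripts decay quickly.

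Levels are the log2 intensity of a probe minus the log2 of the 75th percentile intensity of its array, so 0 is a fairly bright probe of that array, and levels are compared only within a probe. The adipocyte score, the mean level of Adipoq, Lep, Lipe and Aqp7, was 3.63 on LFC W9, 3.69 on HFC W9, 3.15 on LFC W12 and 3.53 on HF75 W12. On the other 6 arrays it ran from -3.55 (HF20 W12) through a median of -0.07 to 0.41 (HF75 W9). The 28 arrays of other time points lay between -2.54 and 1.12, so a gap of 2.03 log2 separated the 4 from every other array of the series. The level of Fos, which encodes a subunit of the transcription factor AP-1, was -2.04, -1.24, -1.36 and 1.17 on the LFC and HFC arrays of W9 and the LFC and HF75 arrays of W12. It ran from 4.20 to 5.01 on the other 6 arrays (median 4.80) and from 4.02 to 6.32 on the 28, which left a gap of 2.85 log2. Nearest to each other across the gap of weeks 9 and 12 were LFC W12 (3.15) and HF75 W9 (0.41) by the score, and HF75 W12 (1.17) and HF20 W12 (4.20) by Fos.

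**Figure D1:**
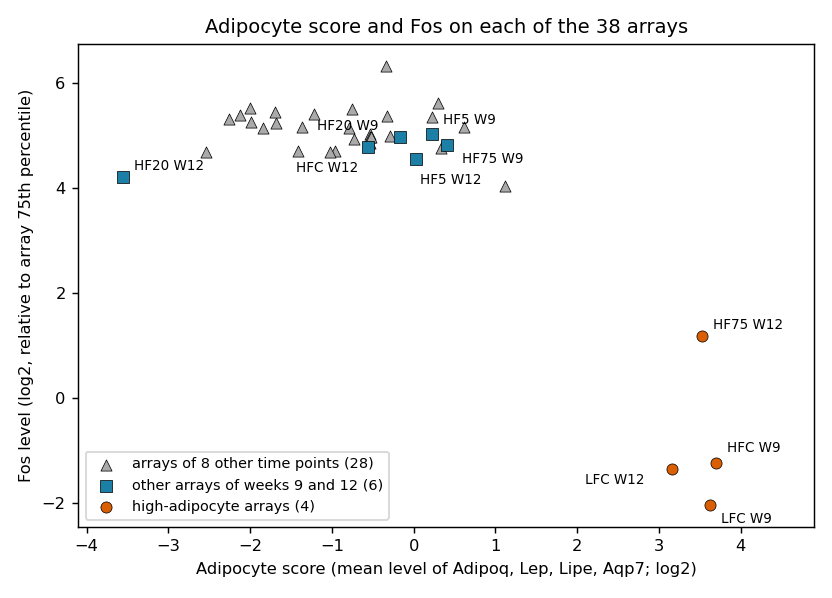
Adipocyte score (mean log2 level of Adipoq, Lep, Lipe and Aqp7, x axis) against the log2 level of Fos (y axis) on each of the 38 arrays, 1 point per array. The 4 high-adipocyte arrays (circles) lie at scores of 3.15 to 3.69 and Fos levels of -2.04 to 1.17, apart from the 6 other arrays of weeks 9 and 12 (squares) and from the 28 arrays of other time points (triangles).

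The split did not follow diet alone. In week 9 the high-adipocyte arrays were the control diets and the others were the 3 doses, which were also scanned on another day, so the kind of preparation, the formulation and the scan day cannot be told apart there. In week 12 all 5 arrays were scanned on 1 day, the high-adipocyte arrays were LFC and HF75, and the LFC and HFC arrays shared a slide. The 4 arrays were brighter, with a 75th percentile of 1294 to 1588 scanner units against 25.8 (HF5 W12) to 949.6 on the others, and they had 555 to 1117 saturated spots against 7 to 666. A saturated spot sits at the scanner's ceiling, which on the scaled levels lies at 5.34 to 5.66 on the 4 arrays and at 6.09 to 11.29 on the 6. A transcript at the ceiling on all 4 therefore has only a lower bound there: where the 4 were higher its fold is given as at least that number, and where they read lower no direction is taken from it. Fewer cells of a type and less RNA per cell cannot be told apart in such bulk RNA, for any gene below.

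A probe was counted higher (or lower) where, in week 9 and again in week 12, each high-adipocyte array lay above (or below) each other array of the week and the mean difference was at least 1 log2. Of 27456 probes tested, 2146 were counted higher (7.82%) and 2358 lower (8.59%), with a median difference of -0.07 log2 over all of them. These shares come from the contrast that defines the arrays, and nothing is read from them beyond size. Each count of a list below stands beside them, 7.82% for higher and 8.59% for lower. At 3 log2 or more 215 were higher and 437 lower. Of the probes counted lower, 513 were saturated on at least 1 of the 4 arrays, against 83 of those counted higher. On the slide that LFC W12 and HFC W12 shared, 1836 of the 2146 were also at least 1 log2 higher in LFC and 1631 of the 2358 at least 1 log2 lower.

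The genes of the rule are described first. Leptin (Lep), the satiety hormone that adipocytes secrete, was at 4.87 on LFC W9, 5.01 on HFC W9, 2.19 on LFC W12 and 3.86 on HF75 W12, and on the other arrays it ran from -6.71 through -2.34 to -1.57. The groups were 6.89 log2 apart on average (within-week SD 1.53), with LFC W12 the lowest of the 4. Hormone-sensitive lipase (Lipe), which cleaves diacylglycerol in the fat droplet, stood at 2.97, 3.21, 3.19 and 2.80 in the same order against -2.37 to 0.36, a difference of 3.99 log2 (SD 0.84). Aqp7, the channel through which glycerol leaves the adipocyte, stood at 1.20, 1.16, 1.79 and 1.79 against -3.85 to 0.05, 2.73 log2 apart (SD 0.84). Adiponectin (Adipoq), an insulin-sensitizing hormone of adipocytes, was saturated on all 4 and thus at least 6.96-fold higher than the mean of the others, where its level ran from -1.28 (HF20 W12) to 4.03.

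The machinery that builds, coats and empties the fat droplet was counted higher in 9 of 13 genes and lower in none, with a median difference of 2.73 log2 beside -0.07 for all probes. Lipe and Aqp7, genes of the rule, are among the 9, and the median is the difference of Aqp7. Perilipin 1 (Plin1), the coat protein that guards the droplet of white adipocytes, was saturated on all 4 arrays and at least 20.7-fold higher, against levels from -2.12 to 3.23 elsewhere. The lipase Pnpla2, which starts triglyceride breakdown, was at least 4.43-fold higher. Its coactivator Abhd5 stood at 0.56, 0.84, 0.80 and 0.55 on the LFC and HFC arrays of W9 and the LFC and HF75 arrays of W12 against -3.10 to -1.41 (difference 2.78, SD 0.44), and its inhibitor G0s2 differed by 2.88 log2 (SD 0.90). So both the activator and the inhibitor of this lipase were counted higher. Fitm2 and Bscl2 (seipin), which act where droplets bud from the endoplasmic reticulum, differed by 3.33 (SD 0.53) and 2.75 log2 (SD 0.52). The members not counted were Plin2, Cidec and Mgll, which were saturated on all 4 arrays and overlapped with the others, and Plin5, which overlapped below the ceiling (0.28 log2).

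Genes for taking up fatty acids and esterifying them were counted higher in 9 of 13, with a median of 2.13 log2. Agpat2, which adds the fatty acid at the second position of glycerol, differed most, at 3.09, 3.36, 3.52 and 2.70 against -2.25 to -0.56 (difference 4.51, SD 0.71). Lpin1 (2.92, SD 0.56), Dgat1 (2.13, SD 0.56) and Dgat2 (at least 3.93-fold) carry out the steps that follow. For entry of fatty acids, lipoprotein lipase (Lpl) was at least 3.99-fold higher, the scavenger receptor Cd36 differed by 1.97 log2 (SD 1.08) and the transporter Slc27a1 by 2.23 (SD 0.57). Fabp4, the most used adipocyte marker among the fatty acid carriers, read lower by 1.67 log2, but it was saturated on all 4 high-adipocyte arrays and on 4 of the 6 others, so its direction cannot be read. The related carrier Fabp5 was below the ceiling everywhere and differed by 3.04 log2 (SD 1.07).

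For de novo lipogenesis, the making of fatty acids from sugar, 8 of 13 genes were counted higher and none lower (median 2.73 log2). Pnpla3, a lipogenic target in fat, was at 4.35, 2.99, 5.02 and 4.89 on the 4 arrays against -5.21 to 0.34 (difference 5.67, SD 1.82). Acss2, which makes acetyl-CoA from acetate, was at 3.96, 2.77, 5.29 and 2.24 against -2.12 to -0.26 (difference 4.78, SD 1.11). Acaca, the carboxylase that commits acetyl-CoA to fatty acid synthesis, was at 1.88, 1.41, 3.88 and 1.104 against -3.93 to -0.76 (difference 4.61, SD 1.101). For both Acss2 and Acaca the low fat array of each week was above the high fat or HF75 array of that week, with LFC W12 the highest of all 10. Fatty acid synthase (Fasn) was saturated on all 4 and overlapped with the others, so it was not counted. The sterol and carbohydrate response factors Srebf1 (1.57, SD 0.53, saturated on 1 of the 4) and Mlxipl (3.00, SD 0.84) were counted higher.

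**Figure D2:**
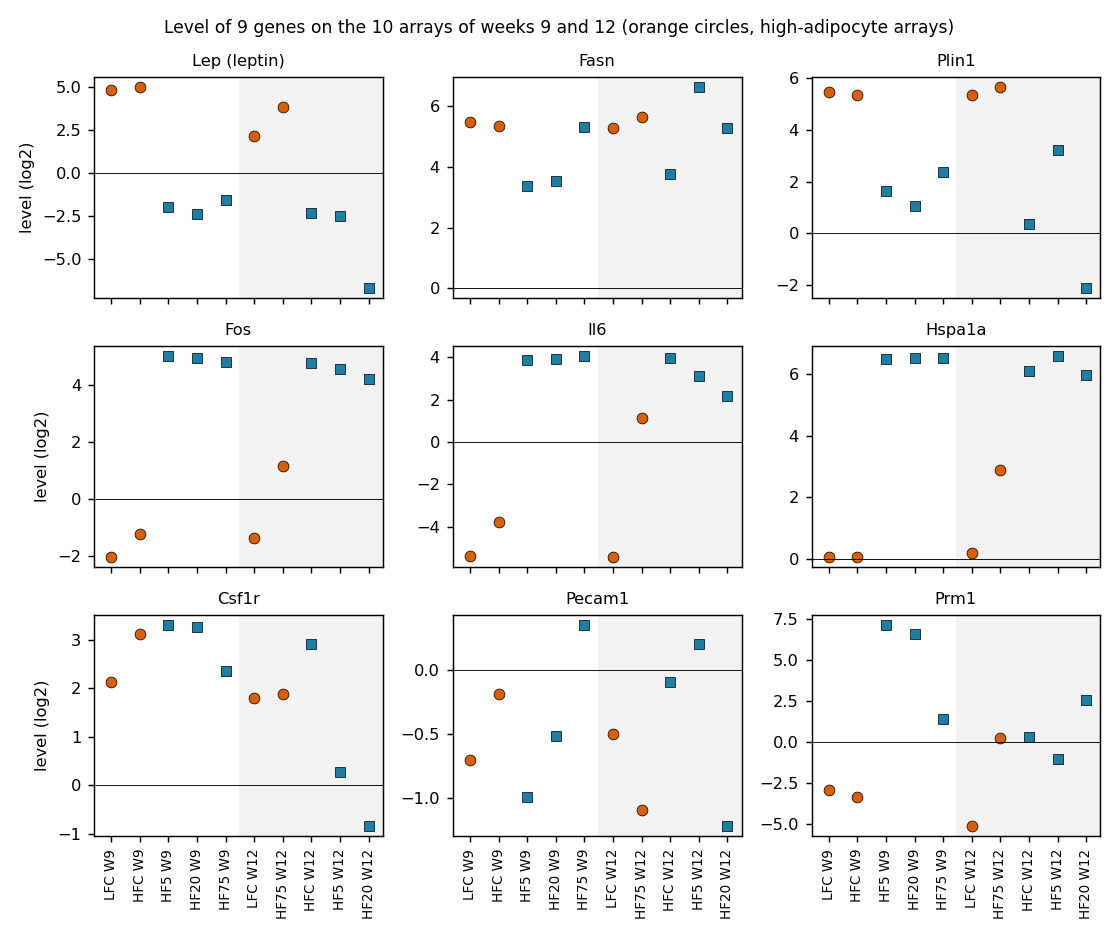
Log2 level relative to the array's 75th percentile (y axis) of 9 genes on each of the 10 arrays of weeks 9 and 12 (x axis), with high-adipocyte arrays as circles, other arrays as squares and week 12 shaded. Lep and Plin1 lie higher and Fos, Il6 and Hspa1a lower on all 4 high-adipocyte arrays, with HF75 W12 the highest of the 4 for the last 3 genes, while Csf1r and Pecam1 overlap. Points of Plin1 and Fasn on the high-adipocyte arrays are at the scanner's ceiling.

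Among adipokines 6 of 10 were counted higher (median 2.27 log2), and the 6 include Adipoq and Lep, genes of the rule. Resistin (Retn), a hormone that mouse adipocytes secrete, was saturated on the 4 arrays and at least 41.9-fold higher, and a further probe of it at least 58.1-fold. Nnat, a small membrane protein found in adipocytes and neurons, differed by 5.09 log2 (SD 1.35), and retinol-binding protein Rbp4 was at least 6.59-fold higher. Adipsin (Cfd) was saturated and overlapped, and Nampt (0.87 log2, SD 0.28) and Apln (0.47, SD 0.89) were not counted.

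The transcription factors of the adipocyte were split. Pparg, the master regulator of fat cell formation, was at 4.81, 4.85, 5.19 and 4.91 on the LFC and HFC arrays of W9 and the LFC and HF75 arrays of W12, below the ceiling, and ran from -0.49 through 2.27 to 3.31 on the others (difference 2.97, SD 1.14). Cebpa, which acts beside Pparg to keep the mature state, was at 3.25, 3.75, 3.47 and 3.07 against -2.78 to 0.24 (difference 4.07, SD 0.97). The early factor of adipogenesis Cebpd went the opposite way, at 3.06, 3.33, 3.50 and 3.67 against 4.73 to 6.04 (difference -2.17, SD 0.33), with no overlap, on a probe that holds the purine stretch described further below. Cebpb, its partner in the early phase, differed by -1.19 log2 (SD 0.75) and was not counted. In all, 6 of 12 were higher and only Cebpd lower, with Klf15 (2.68, SD 0.49), Nr1h3 (1.96, SD 0.80), Zfp423 (1.76, SD 0.48) and Ebf1 (1.65, SD 0.69) on the higher side.

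Insulin action was split in a like manner, with 8 of 14 genes higher and 1 lower (median 1.33 log2). The insulin-responsive glucose transporter Slc2a4 was at 4.76, 4.76, 5.25 and 5.09, saturated on 1 of the 4, against 0.91 to 4.00 (difference 3.07, SD 0.93). The insulin receptor (Insr, 1.47, SD 0.41), its substrate Irs1 (2.18, SD 0.41), the kinase Akt2 (1.37, SD 0.47) and glycogen synthase Gys1 (3.51, SD 0.71) were also higher. The second substrate, Irs2, was lower, at 1.49, 0.27, 2.28 and 1.85 against 2.81 to 3.91 (difference -2.05, SD 0.53), so the substrates of 1 receptor lay on opposite sides.

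Receptors that set the rate of lipolysis were counted higher in 7 of 10 and lower in 1 (median 2.40 log2). The beta-3 adrenergic receptor Adrb3, the form confined in mice largely to adipocytes, was saturated on all 4 arrays and at least 28.03-fold higher. The clearance receptor for natriuretic peptides, Npr3, was at 5.01, 4.08, 4.30 and 4.79 against -2.46 to 1.05 (difference 4.74, SD 0.99). Receptors that hold lipolysis back were also higher, namely the adenosine receptor Adora1 (3.24, SD 0.85), the prostaglandin receptor Ptger3 (3.55, SD 1.26) and Hcar2 (1.32, SD 0.92), whereas the alpha-2A adrenergic receptor Adra2a was lower (-1.70, SD 0.74). Thus activating and inhibiting receptors were both represented on the higher side.

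Enzymes that burn branched chain amino acids and feed the citrate cycle were counted higher in 7 of 15 and lower in none (median 1.93 log2), among them pyruvate carboxylase Pcx (3.35, SD 0.85, saturated on 1 of the 4), Pcca (2.63, SD 0.54), Mccc1 (2.56, SD 0.52) and Bcat2 (2.52, SD 0.83). The mean level of the list on HF5 W12, 3.10, lay within the 2.88 to 3.11 of the 4, and on that array the levels were too high for Bckdhb (2.48 log2) and Idh3a (2.53 log2) to be counted. HF5 W12 also had the highest respiratory chain score (5.39 against 4.54 to 4.88 on the 4) and the highest brown fat score (3.81 against -1.30 to -0.50), and on it the uncoupling protein Ucp1 of brown adipocytes stood at 6.93, with at most -3.15 on the other 9 arrays. Of the respiratory chain list only Ndufs1 was counted higher (1.39 log2, 1 of 14), near the 7.82% of all probes, and 0 of 7 brown fat genes were counted.

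The named genes of largest difference on the higher side were, after Lep, Lctl (6.89 log2), a klotho family protein, Slc7a10 (6.41), a neutral amino acid transporter found in white adipocytes, the acute phase protein Orm2 (6.27), corneodesmosin Cdsn (6.04), the cytochrome Cyp2e1 (6.02) and the succinate receptor Sucnr1 (5.87). Glycogen synthase Gys2 (5.75), resistin as given above, the FGF21 co-receptor Klb (5.72), the droplet lectin Lgals12 (5.71) and the thyrotropin receptor Tshr (5.68) followed. Each of these 12 genes was lower on all 28 arrays of other time points than on any of the 4. Tshr, for example, was at 0.86, 0.70, 1.597 and 0.85 on the LFC and HFC arrays of W9 and the LFC and HF75 arrays of W12, and no array of the 28 exceeded -4.02.

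On the lower side stood the immediate early genes. All 19 tested were counted lower, beside 8.59% of all probes, with a median difference of -3.57 log2, of -4.03 within week 9, of -3.39 within week 12 and of -4.05 between LFC and HFC on the shared slide of week 12. The 19 include Fos, a gene of the rule. None of the 19 probes was saturated on any of the 4 arrays, but only 12 were unsaturated on all 10. The rest were at the ceiling on some of the 6, so the size and order of their differences are not exact. Under normexp background correction, which moved the median of all probes to -0.75, 5 of the 19 were counted lower, beside 23.7% of all probes. Their share was thus near that of all probes under this correction, while their median was -2.39. The AP-1 family was led by Fos (-5.59, SD 0.79) and Fosb (-5.52, SD 1.34), while Junb (-3.91, SD 0.99), Jund (-2.54, SD 0.43) and Jun (-2.46, SD 0.33) differed less. Atf3, a stress-induced repressor of the same family of dimers, was at -0.29, 0.62, -1.39 and 1.001 on the 4 against 4.96 to 5.84 (difference -5.43, SD 0.77). The orphan nuclear receptor Nr4a1 was at 1.34, 1.46, 0.74 and 3.80 against 5.76 to 7.27 (difference -4.74, SD 1.01). Socs3, the brake on cytokine receptors, differed by -4.89 log2 (SD 0.76), the zinc finger factor Egr1 by -4.53 (SD 0.62) and Zfp36, which speeds the decay of cytokine transcripts, by -4.37 (SD 0.44). The smallest difference belonged to Klf4 (-2.35, SD 0.41), a zinc finger factor of endothelial and other cells. On the 28 arrays the immediate early genes were as high as on the 6, for Atf3 from 4.86 to 6.63 and for Nr4a1 from 5.14 to 8.01.

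HF75 W12 was between the groups for many of these genes. Its mean over the 19 was 2.12, against 0.75, 1.24 and 0.76 on LFC W9, HFC W9 and LFC W12, and 4.27 to 5.25 on the other 6. Fosb showed the largest step, with 0.26 on HF75 W12 against -4.85 to -3.998 on the rest of the 4. Btg2, an antiproliferative early gene, showed nearly none, at 1.39, 1.55, 1.46 and 1.74, and the SD within a week was 0.19.

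The upstream sequences of 5 of these genes are printed because each holds the motif TGACG, and they were picked for it after the search, so they do not stand for all 19. They are the 150 bases before the annotated start in RefSeq on build GRCm38.p6, written 5' to 3' on the strand of the gene, and capitals mark TGACG or its reverse complement, the whole cAMP response element TGACGTCA where present, and TATAAA. Fos lies at chr12:85473740-85473889 (plus strand), Junb at chr8:84978749-84978898 (minus), Atf3 at chr1:191183334-191183483 (minus), Dusp1 at chr17:26508473-26508622 (minus) and Nr4a1 at chr15:101266696-101266845 (plus).
Fos: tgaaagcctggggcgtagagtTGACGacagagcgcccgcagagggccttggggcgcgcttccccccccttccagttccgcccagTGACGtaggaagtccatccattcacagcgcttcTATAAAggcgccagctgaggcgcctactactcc
Junb: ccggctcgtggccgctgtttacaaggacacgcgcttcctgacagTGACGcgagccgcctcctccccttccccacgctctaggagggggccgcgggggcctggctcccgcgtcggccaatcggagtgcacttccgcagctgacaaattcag
Atf3: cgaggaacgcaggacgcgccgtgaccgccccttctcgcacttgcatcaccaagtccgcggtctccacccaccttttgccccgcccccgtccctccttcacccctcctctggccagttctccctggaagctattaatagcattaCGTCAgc
Dusp1: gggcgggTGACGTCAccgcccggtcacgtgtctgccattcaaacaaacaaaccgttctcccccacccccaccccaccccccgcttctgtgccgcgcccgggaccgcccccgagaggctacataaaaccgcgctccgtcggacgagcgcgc
Nr4a1: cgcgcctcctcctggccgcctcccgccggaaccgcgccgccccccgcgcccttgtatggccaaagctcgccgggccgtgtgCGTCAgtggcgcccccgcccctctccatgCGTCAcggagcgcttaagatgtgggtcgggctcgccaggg

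Motifs were searched in the 250 bases before the start, on both strands except for TATAAA, and 16 of the 19 genes had a promoter in the table. TGACG, the core of the cAMP response element, was found in 10 of the 16 (62.5%), against 26.8% of the genes tested here that have a promoter and 17.8% of all promoter entries of the table. TGACGTCA, which overlaps TGACG, was in 2, Dusp1 and Btg2 (1.55% of all promoters), and the CArG box, which binds serum response factor, in 2, Egr2 and Zfp36 (1.47% of all promoters). The AP-1 site TGANTCA was in 0 of the 16 (6.75% of all promoters). Of the cytokine and chemokine genes 11 of 15 had a promoter, and 6 of these (54.5%) held an NF-kB site, against 25.0% of the immediate early genes, 10.3% of the genes tested and 7.25% of all promoter entries of the table. Of the genes of the lipid droplet, fatty acid uptake, lipogenesis and adipokine lists, 39 of 49 had a promoter and TGACG was in 7 (17.9%) and an NF-kB site in 7 as well. These matches describe the letters in the windows only.

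Cytokine and chemokine genes were counted lower in 10 of 15 and higher in none, with a median of -4.83 log2. Interleukin 6 (Il6) was at -5.41, -3.80, -5.44 and 1.13 on the LFC and HFC arrays of W9 and the LFC and HF75 arrays of W12 and ran from 2.16 through 3.92 to 4.06 on the others (difference -6.91, SD 2.02). The neutrophil attractant Cxcl1 was at -3.71, -2.24, -4.45 and -0.18 against 1.46 to 4.69 (difference -5.998, SD 1.65). Tumour necrosis factor (Tnf) was at -4.46, -3.91, -5.02 and -3.86 against -2.82 to 3.36 (difference -5.89, SD 1.82), where HF5 W12 was the lowest of the others. The prostaglandin synthase Ptgs2 differed by -5.15 log2 (SD 1.32), Il1b by -4.83 (SD 1.39) and Nfkbia, the inhibitor that NF-kB itself induces, by -3.47 (SD 0.75). Il1a, Osm, Ccl3, Ccl4 and Cxcl2 were not counted, since HF75 W12 lay above HF5 W12 or HF20 W12. Without HF75 W12 all 15 were counted lower, beside 16.1% of all probes. The probes of Cxcl1 and Nfkbia hold the purine stretch described further below, and without them 8 of 13 cytokine genes were counted lower.

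Of 10 heat shock genes 3 were lower. Hspa1a, the inducible HSP70 chaperone, was at 0.06, 0.07, 0.19 and 2.87 against 5.97 to 6.58 (difference -5.57, SD 0.80), and its co-chaperones Dnajb1 (-1.53, SD 0.36) and Hsph1 (-1.38, SD 0.55) went the same way. The constitutive Hspa8, at -0.64 log2 (SD 0.21), and Hspd1 of mitochondria, at 0.98 (SD 0.42), were not counted. In the list of endoplasmic reticulum stress the asparagine synthetase Asns was higher (2.40, SD 0.37) and its activator Atf4 lower (-1.27, SD 0.47). Of the genes that respond to low oxygen, Vegfa (2.36, SD 0.58) and Bnip3 (2.11, SD 0.52) were higher, while Slc2a1 (-1.52, SD 0.29) and Ndrg1 (-1.68, SD 0.82) were lower, the last on a probe with a purine stretch. Of 10 clock genes only Per1, which also responds early to stimuli, was counted (-1.77, SD 0.57), a share near the 8.59% of all probes.

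**Figure D3:**
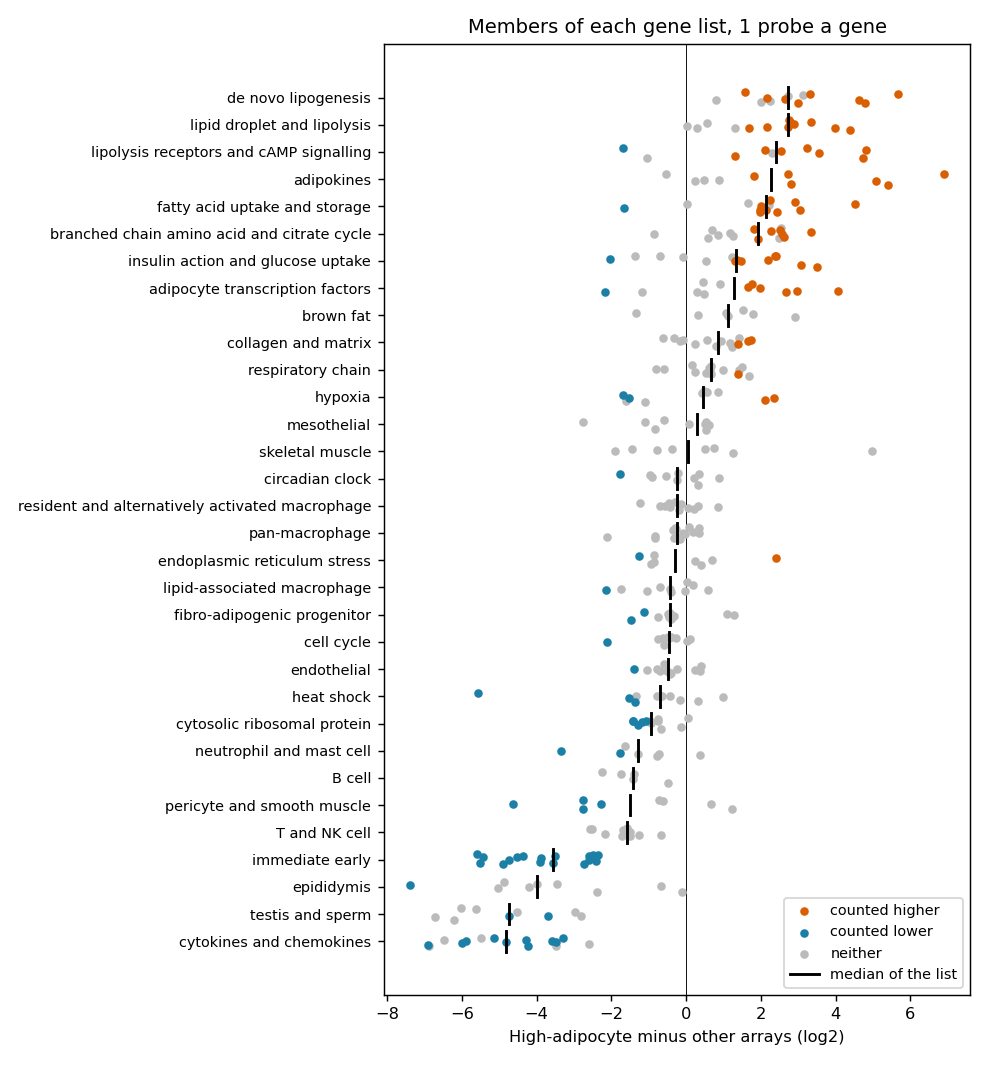
Difference of the high-adipocyte arrays from the other arrays of weeks 9 and 12 (log2, x axis) for the genes of the lists with 5 or more genes tested, 1 point a gene, coloured by whether the gene was counted higher, lower or neither, with the median of the list as a bar. Fat lists lie to the right with medians up to 2.73, all 19 immediate early genes lie to the left of -2, and macrophage, endothelial and progenitor lists lie around 0.

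The label names macrophages, and macrophage genes were present on all 10 arrays. Csf1r, the receptor on which macrophages depend, was at 2.14, 3.11, 1.80 and 1.89 on the LFC and HFC arrays of W9 and the LFC and HF75 arrays of W12, and at 3.31, 3.27, 2.37, 2.92, 0.28 and -0.84 on HF5 W9, HF20 W9, HF75 W9, HFC W12, HF5 W12 and HF20 W12. The groups overlapped, with the last 2 arrays the lowest of the 10. None of 15 pan-macrophage genes was counted in either direction, and the median of -0.25 log2 hid opposite signs by week, -0.85 in week 9 and 0.42 in week 12, and it was 0.30 under normexp background correction. The summed level of the list, as its mean, was 1.76 to 2.89 on the 4 arrays and 0.07 to 3.88 on the others. Without HF5 W12 and HF20 W12, 6 of the 15 were counted lower, beside 13.2% of all probes. On the shared slide LFC W12 was below HFC W12 by a median of 1.58 log2 over the list. Against the label, the adipocyte genes Adipoq and Plin1 were saturated on all 4 arrays, and both were well above background on the other 6 as well.

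In the lipid-associated macrophage list only the tetraspanin Cd9 was counted lower (-2.13, SD 0.73, 1 of 10), near the 8.59% of all probes. Resident macrophage genes gave 0 of 12. None of 11 T and NK cell genes was counted, with a median of -1.58 log2 that was -3.06 in week 9 and -0.44 in week 12, and none of 5 B cell genes (median -1.43). The neutrophil alarmins S100a8 (-1.78, SD 0.74) and S100a9 (-3.36, SD 1.25) were counted lower, the first on a probe with a purine stretch. Smooth muscle genes were lower in 4 of 8, namely Cnn1 at 0.20, -0.83, -0.14 and 0.70 against 2.98 to 5.34 (difference -4.62, SD 0.81), Acta2 (-2.77, SD 0.69), Tagln (-2.76, SD 0.74) and Myh11 (-2.27, SD 0.65), all contractile proteins. The pericyte genes Rgs5 (0.67, SD 0.56), Pdgfrb (-0.72, SD 0.61) and Cspg4 (1.24, SD 0.93) were not counted.

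Of 12 endothelial genes only von Willebrand factor (Vwf) was counted, as lower (-1.41, SD 0.55), a share near the 8.59% of all probes. The median of the list was -0.48 log2 (0.13 under normexp background correction). Progenitor genes Dcn and Gsn read lower, but both were saturated on all 4 arrays and on 5 of the 6 others, and none of the 8 unsaturated progenitor genes was counted (median -0.42). Of the cytosolic ribosomal proteins, all 5 that were counted lower were saturated on at least some of the 4 arrays, and 0 of 6 unsaturated members were counted. Without the limit of 1 log2, however, 10 of the 12 lay below the other arrays in both weeks. The median of the 6 unsaturated members was -0.70 log2. In the matrix list Col15a1 (1.73, SD 0.74), Col4a2 (1.66, SD 0.72) and Lama4 (1.39, SD 0.64) were counted higher, 3 of 14. These are basement membrane genes, but Col4a1 and Nid1, also of the basement membrane, were not counted, nor were the fibrillar collagens Col1a1 and Col3a1. The median of the list was 0.85 log2, but -0.39 between LFC and HFC on the shared slide of week 12.

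Transcripts of the neighbouring organ varied strongly. The epididymal secretory protein gene Crisp1 was at 0.24, -8.28, -7.56 and -1.93 on the 4 arrays against -1.48 to 6.16 (difference -7.38, SD 3.77). It was the only epididymis gene of 9 to be counted (median -3.99), a share near the 8.59% of all probes. Sperm genes such as the protamine Prm1, at -5.15 to 0.20 against -1.07 to 7.14, overlapped, and 2 of 9 were counted lower, Gapdhs (-4.73, SD 2.17) and Akap4, which was not well above background on any of the 4 and at least 8.82-fold lower. What part these transcripts had in the other differences was not tested.

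The largest differences on the lower side had a sequence feature in common. The 12 named genes of largest negative difference were E030044B06Rik (-8.42 log2), the keratin Krt2 (-8.38), the acetylcholine receptor subunit Chrna9 (-8.30), Gm4435 (-8.23), Gm2557 (-7.97), the olfactory receptor Olfr1199 (-7.87), Gm3438 (-7.77), LOC100048827 (-7.68), Tmem52b (-7.68), LOC100048256 (-7.66), Gm3087 (-7.59) and the growth factor Nrg1 (-7.58). Only Gm4435, Gm2557 and Tmem52b were well above background on all 4 high-adipocyte arrays. The rest were so on 1 or 2 of the 4, so their differences lean on background levels and neither their size nor their order is exact. Each of the 12 was highest on HF5 W12, the dimmest array, and Krt2 stood at -6.49, -6.14, -4.61 and -1.68 on the 4 arrays against 0.77 to 7.04. Stretches of 30 bases of the 60-base probes are printed here around the longest run of purines, in capitals, first for 6 probes of the lower side and then for 6 of the higher side. They are a selection: of those not printed, Lgals12 of the higher side has a run of 11 bases and Gm3438 of the lower side a run of 29.
Krt2: tccggatctGGAGGAGGAGGAtacagctct
Chrna9: cagattAGAAAGAAAGAGGAGGAGtgggtt
Olfr1199: cagtgctGAAGGGAGGAGGAAAGccctatc
Tmem52b: GGAGAGGAGAttgatctattgccgagaaaa
E030044B06Rik: acaatttcttGGGAGAGGAGAtctttctgg
Nrg1: agcatattgtGGAGAGAGAAGtggagacct
Lep: gggttttctgttAAGAGAtggttagcttat
Cdsn: ctatttgccttcttGGGGtccaaggtctct
Sucnr1: ttggtcaggtcgataagcgtgtttctGAAA
Klb: ctgtcatagtttcAAGAttcactccggctc
Gys2: ccagatcattgatAGGAActtgtagccacc
Tshr: ccttgtAAAGGAAAGGctacgctagtcaca

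Of the 12 probes on the lower side 11 held GAGGAG and that of Nrg1 held GAGAGA, while none of the 12 on the higher side held either. Over all probes the share counted lower was larger with the longest run of A and G in the probe, from 7.83% of 17862 probes with a run of at most 6 bases to 14.3% of 852 with 11 or 12, 23.0% of 356 with 13 to 15 and 40.4% of 141 with 16 or more. The share counted higher went from 8.06% to 2.13% over the same classes. Runs of C and T of 16 or more had 7.25% of their 69 probes counted lower. A purine run of over 10 bases was held by 36.5% of the 200 probes of largest negative difference, 11.1% of all counted lower, 3.36% of all counted higher and 4.91% of all tested. All these shares come from the contrast that defines the arrays. They include probes near background on the 4, since detection in either group was enough for a probe to be kept. Shares among probes detected in both groups were not computed. On the arrays themselves the median level of the 141 probes was -1.15, -1.05, -1.01 and -0.15 on the LFC and HFC arrays of W9 and the LFC and HF75 arrays of W12, 0.17 to 2.33 on the other 6 and -2.39 to 1.23 on the 28, so the 4 were below the 6 but not below the rest of the series. The levels of keratin, olfactory receptor and acetylcholine receptor probes on the other arrays are therefore given as probe values only. A purine stretch, as named for single probes above, means a purine run of over 10 bases, GAGAGA or GAGGAG, and 8.47% of all tested probes held one. None of the 19 immediate early probes held such a stretch, and without every probe that did, 2014 probes were counted higher and 1975 lower of 25130.

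**Figure D4:**
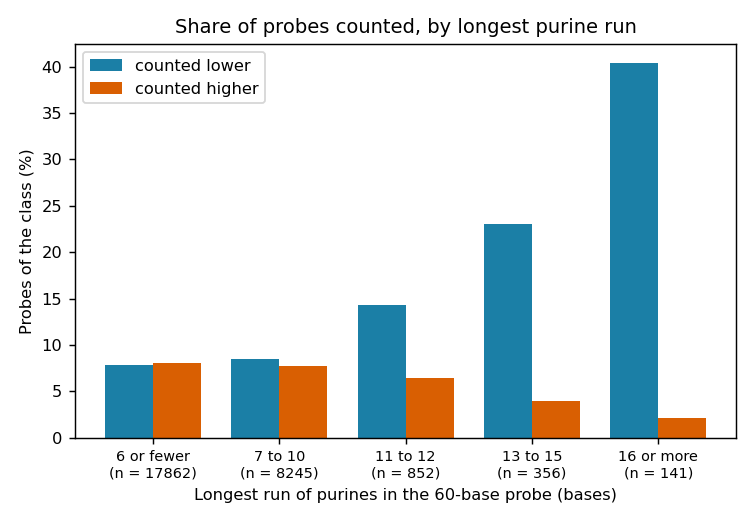
Share of probes counted lower and counted higher in the high-adipocyte arrays (%, y axis, from 0) by the length of the longest run of purines (A or G) in the 60-base probe (bases, x axis), with the number of probes per class. The share counted lower goes from 7.83% to 40.4% and the share counted higher from 8.06% to 2.13%.

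The 28 arrays of the other time points allow a test, since the choice of the 4 arrays did not use them. There each probe was fitted on the adipocyte score with the time point as a block (limma, two-sided, Benjamini-Hochberg adjusted p under 0.05). The score spanned only -2.54 to 1.12 there, and no array reached the level of the 4. Of 29480 probes 570 had a positive slope (1.93%) and 377 a negative one (1.28%). Slopes are in log2 of the probe per log2 of the score.

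Fat genes with a positive slope were Pparg (1.20, SE 0.16, limma adjusted p 0.00077), Cd36 (1.15, SE 0.19, adjusted p 0.0031), Lpl (0.63, SE 0.12, adjusted p 0.0089), Npr3 (0.69, SE 0.12, adjusted p 0.0035) and Mgll (0.78, SE 0.17, adjusted p 0.018). By list, 4 of 11 genes of the lipid droplet, 5 of 14 of fatty acid uptake, 5 of 12 of the lipolysis receptors and 3 of 12 adipocyte transcription factors passed, beside 1.93% of all probes, and none of these lists had a negative slope that passed. Adrb3 (0.83, SE 0.20, adjusted p 0.030) and Plin2 (0.51, SE 0.14, adjusted p 0.047) passed as well. These counts rested on few time points: without day 10 they were 0 of 11, 2 of 14 and 2 of 12 for the lipid droplet, fatty acid uptake and lipolysis receptor lists, and without week 18 they were 0, 3 and 1. None of the 13 genes of de novo lipogenesis passed (median slope 0.14), with Fasn at -0.02 (SE 0.20, adjusted p 0.98) and Acaca at 0.20 (SE 0.16, adjusted p 0.57), and none of the 15 genes of branched chain amino acids and the citrate cycle passed either (median 0.09).

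No immediate early gene passed in either direction (0 of 19), while 4 of the 19 had a positive slope on a score of Plin1, Cidec, Pnpla2 and Slc2a4 and 1 without week 15. All 19 slopes were above 0 with a median of 0.14, and Fos was at 0.07 (SE 0.11, adjusted p 0.82). Nor did any of the cytokines (0 of 15, median 0.03) or the pan-macrophage genes pass (0 of 15, median 0.00), with Il6 at 0.28 (SE 0.22, adjusted p 0.55) and Csf1r at -0.02 (SE 0.21, adjusted p 0.98). A negative slope, the direction seen on the 4 arrays, passed for none of the 19 over the narrower range of scores in the 28.

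Endothelial genes were the list with the most positive slopes. In the 28 arrays 11 of 12 had a positive slope (median 0.87), among them Flt1 (1.07, SE 0.26, adjusted p 0.029), Kdr (0.98, SE 0.23, adjusted p 0.027), Cdh5 (0.95, SE 0.20, adjusted p 0.013) and Pecam1 (0.93, SE 0.21, adjusted p 0.024), which are receptors and junction proteins of vessel cells, and only Vwf did not pass (0.15, SE 0.16, adjusted p 0.69). In weeks 9 and 12 none of the 12 was counted higher. The difference between both sets of arrays was not tested. The count again rested on single time points: without day 10 it was 2 of 12, without week 18 also 2, and without days 6 and 10 it was 0, with a median slope of 0.71. Mesothelial genes, which mark the lining of the fat pad, all had slopes below 0 (median -1.35) and the keratin Krt19 passed (-1.38, SE 0.38, adjusted p 0.047). Epididymis genes had a median slope of -2.08, and none of the 9 passed.

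**Figure D5:**
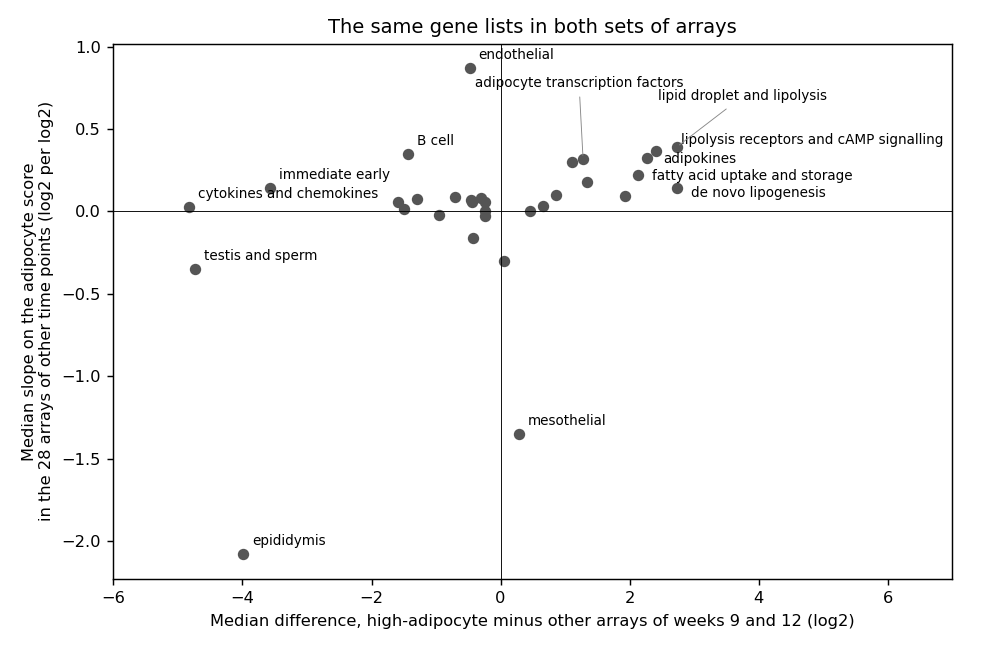
Median slope of each gene list on the adipocyte score in the 28 arrays of other time points (log2 per log2, y axis) against its median difference between high-adipocyte and other arrays of weeks 9 and 12 (log2, x axis), 1 point a list. The lipid droplet and lipogenesis lists lie to the right with slopes of 0.39 and 0.14, endothelial genes have the highest slope (0.87) at a difference of -0.48, and epididymis genes the lowest (-2.08).

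The probes of smallest p with a positive slope were Cd300lg, a receptor of capillary endothelium (1.52, SE 0.19, limma adjusted p 0.00077), Fabp5 (1.104, SE 0.14, the same adjusted p), Exoc3l (0.95, SE 0.13) and Gm13998, Fabp5l2 and Gm6100 (0.91 to 0.94). The last 3 may share signal with near-identical copies, so they are uncertain. With a negative slope they were the growth factor Bmp7 (-0.88, SE 0.13, adjusted p 0.0015), Radx (-1.23, SE 0.22), Col7a1 (-1.06, SE 0.19), Fzd10 (-1.19, SE 0.23), Lrp4 (-0.78, SE 0.15) and Arhgef16 (-0.76, SE 0.15). Bmp7 and Radx were also counted lower on the 4 arrays, by 1.28 and 2.71 log2, and Fabp5 was counted higher.

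Probe by probe, the sets from different arrays shared some members. Of 2111 probes counted higher and tested in the 28 arrays, 82 had a positive slope (3.88%) and 10 a negative one (0.474%), beside 2.07% and 1.20% of all 25270 probes tested in both. Of 2263 counted lower, 49 had a negative slope (2.17%) and 25 a positive one (1.105%). Seen from the slopes, 82 of 522 positive probes were counted higher (15.7%) and 25 lower (4.79%). Of 303 negative ones, 49 were counted lower (16.2%) and 10 higher (3.30%). Among all 25270 probes tested in both, 2111 were counted higher and 2263 lower.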

How the data were processed

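RNA was hybridised to 1-colour Agilent arrays of 60-base probes, 1 array per diet and time point. The deposited scanner files hold intensity, background-corrected by the authors with Agilent Feature Extraction (10.5.1.1 per the file headers, 9.1 in the submitters' processing notes). A deposited series table holds log2 ratios to LFC within each time point and served as an alternative. The intensities of the week 9 dose arrays carry fewer digits in the deposited files. Here, log2 of the processed signal minus log2 of each array's 75th percentile was taken, with the percentile over all 43803 non-control spots. Spots with outlier flags, most numerous on HF75 W12 and HFC W12, were dropped, and the remaining spots of 1 probe were averaged (40628 probes). The difference left out 7216 probes without a value on 1 or more of the 10 arrays. Probes well above background on at least 0.5 of the arrays of a group were kept. Of the probes, 28136 (69.3%) matched the gene table, and other names are those of the array. A gene of a list is represented by its brightest probe on average. The difference is the mean of the differences within weeks 9 and 12, and its SD is that within week and group. The 28-array slopes used limma 3.58.1 in R 4.3.3 with time point as a block, and the code was tested on simulated data. Named genes are the markers of the choice, members of 35 lists, the 12 probes of largest difference in each direction (counted, well above background on the whole higher group) and the 6 of smallest p in each direction of the slope. The members and the lists were chosen with earlier results of these data known. With 1 array per diet and time point, and time point as a block, p-values measure the spread between arrays of different diets within a time point. The number of arrays limits the precision. Alternatives comprised quantile scaling, normexp background correction (offset 50), other filters, single weeks, other blocks and leaving out arrays. Probe positions in the genome are not given, since no genome was used here, and promoters come from the RefSeq table of build GRCm38.p6.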

Additional observations from a re-analysis of the deposited data

Results flagged for a closer look

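Within each group of arrays, the highest and the lowest value of every list score, of brightness and of the genes of the rule were compared with their nearest neighbour, and in 12 of 84 sets of values the gap, as a share of the range, exceeded Dixon's critical value. About 1 in 20 groups does so by chance, and the sets share arrays and genes. On HF5 W12, of the 6 other arrays, these were the log2 brightness (4.69, the lowest), and the scores of branched chain amino acid and citrate cycle genes (3.10), respiratory chain (5.39), brown fat (3.81) and skeletal muscle (4.31), all the highest. HF20 W12, also of the 6, stood apart at the low end with an adipocyte score of -3.55, an adipokine score of -1.79, Adipoq at -1.28 and Lep at -6.71. Of the 4 high-adipocyte arrays, HF75 W12 was apart in the heat shock score (3.55) and in the score of testis and sperm genes (-2.15), both the highest of the 4, and HFC W9 in the score of endoplasmic reticulum stress genes (1.35, the lowest of the 4).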

How the results depend on the processing

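No paired analysis was possible because replicate numbers were given here in accession order only and each diet had 1 array per week. For the counts of probes higher and lower (2146 and 2358), week 9 alone gave 4815 and 5796, and week 12 alone gave 4247 lower. Leaving out 1 array at a time gave 2145 to 2887 higher and 2400 to 4576 lower, both highest without HF75 W12. Without HF5 W12 and HF20 W12, chosen after seeing the data, they were 3359 and 3644. With probes well above background on all 10 arrays they were 1254 and 1515, and with a limit of 2 log2 583 and 935. Keeping spots with outlier flags, an alternative not planned in advance, gave 2256 higher and 2432 lower of 31947 probes. Quantile scaling gave 1351 lower and normexp 6518. Scaling shifted the median of all probes from -0.07 to 0.12 (quantile), -0.75 (normexp) and -0.19 (centred on probes detected on all 10 arrays), and the share of counted probes that were higher from 47.6% to 61.5%, 29.6% and 36.7%. Under normexp the medians of progenitor (0.27), heat shock (0.35) and ribosomal genes (0.30) changed sign. Immediate early genes counted lower were 5 of 19 under normexp, beside 23.7% of all probes, and 19 under quantile scaling, beside 4.92%. Of 739 list medians under alternatives, 702 moved by less than the spread between arrays and 34 moved further. The other 3 changed sign from a main median larger than that spread. Smaller medians also changed sign and are not among the 3, such as those of pan-macrophage (0.30) and endothelial genes (0.13) under normexp. Without probes saturated on any of the 10 arrays, 12 of 12 immediate early genes and 9 of 13 cytokine genes were lower.

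Probes with a positive slope (570) numbered 11820 under normexp, 1052 with a score of Plin1, Cidec, Pnpla2 and Slc2a4, 954 with brightness added, 346 with diet added, 342 with no filter, 340 with scan day as block (diet was taken from the source name where the diet characteristic of HF5 and HF20 in weeks 15 and 18 named the opposite dose), 205 without the 2 arrays of farthest score, 60 without days 6 and 10 and 44 in weeks 3, 6, 15 and 18 alone. Negative slopes (377) numbered 878 under normexp, 665 with brightness, 601 with the other score, 201 with no block, 139 under quantile scaling, 136 with diet, 129 with no filter, 107 with scan day, 38 without the farthest 2, 4 without days 6 and 10 and 4 in those weeks alone. Leaving out 1 time point gave 91 (day 10) to 542 positive and 5 (day 10) to 638 (week 15) negative slopes, with 106 and 13 without week 18. Endothelial genes with a positive slope were 4 of 12 under normexp, where 11820 of all 29480 probes had one. They were 4 with the other score (1052 of 29480 probes), 4 without the farthest 2 (205 of 29637) and 11 with brightness (954 of 29480). The cause of these shifts was not tested.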
